A study of Mus musculus with 9 samples.

Results

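Among the 18193 genes named on the arrays, 10 were examined in depth because their signal was lower in T2M cells than in each of the other sorted lung populations: Havcr2, Prex1, Niban1, Borcs6, Zfp106, Matk, Plac8, Krcc1, Plbd1 and Gch1. They were picked from the measured differences themselves, and 17 of the 34945 probe sets that carry a single gene symbol report on them. Their low signal in T2M cells is therefore how they were chosen, and it is described below without a test. What the choice did not use directly is how the genes compare among the other populations, what their further probe sets show, and what the genes that work with them do. The first of these is still tied to the choice, as stated where it is tested.

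The study hybridised 9 Affymetrix mouse arrays with RNA of cell populations sorted from lungs of female BALB/c 4get mice aged 6 to 8 weeks. The 4get allele is a reporter that makes cells green when they express Il4. All mice were given 0.5 µg of IL-25, a cytokine that starts type 2 inflammation, in 50 µL into the trachea every day for 4 days. All 4 populations carry the reporter allele and the treatment, and no untreated mice were analysed here. Every replicate was a pool from 4 donor mice, enriched for CD11b+ cells and sorted to 400000 cells, and 50 ng of its RNA was amplified before hybridisation. T2M cells (3 arrays) were sorted as F4/80+, Gr-1mid and MHCIIlo cells that were IL-4/GFP+ and IL-5Rα-. Cells labelled eosinophils (2 arrays) were IL-5Rα+, Gr-1hi, MHCIIlo, F4/80- and GFP-, and those labelled neutrophils (2 arrays) were Gr-1+, MHCIIlo, F4/80-, IL-5Rα- and GFP-. Cells labelled macrophages (2 arrays) were F4/80+, MHCII+, Gr-1-, IL-5Rα- and GFP-. The gates are as the labels give them, and each name below is the name on the label.

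Several arrays stood apart or went against their labels. A list of 8 measured eosinophil markers averaged 9.35 to 9.73 on the log2 scale in T2M cells, against 6.06 to 7.09 in cells labelled eosinophils, 5.56 to 7.23 in neutrophils and 4.48 to 4.64 in macrophages. Il5ra, the receptor subunit whose surface protein was used to sort eosinophils, measured 7.18 to 8.05 in T2M cells and 4.60 and 5.77 in eosinophils. A list of 9 neutrophil markers was highest in cells labelled eosinophils, at 11.62 and 12.25, against 7.81 to 9.02 in T2M cells, 8.22 and 9.25 in neutrophils, and 6.74 and 7.71 in macrophages. The mean of macrophage and monocyte markers (10 genes) was highest in cells labelled neutrophils, at 10.65 and 10.71. Its genes were not uniform, since Cd68, Cx3cr1 and Ccr2 averaged highest in macrophages, and Adgre1 and C1qb in T2M cells. The mean of dendritic cell markers (7 genes) was highest in cells labelled macrophages, at 8.30 and 8.56, although Siglech averaged highest in T2M cells. Epithelial, endothelial and stromal markers (8 genes) averaged 8.36 to 8.61 in T2M cells and 6.64 to 7.93 on the other 6 arrays. Of these, Scgb1a1 and Pecam1 averaged highest in eosinophils and Epcam in macrophages. The macrophage arrays resembled each other with r = 0.994 over all probe sets, and neutrophil replicate 2 was more like a macrophage array (r = 0.954) than like its own replicate (r = 0.916). The 3′ minus 5′ difference of the Gapdh control, a measure of RNA length, was 2.35 to 3.43 in T2M cells and 1.02 to 2.41 on the other arrays. For the actin control this difference reached 0.61 for T2M replicate 1, against 0.54 for eosinophil replicate 1. It was -0.04 and -0.02 on the other T2M arrays and -0.10 to 0.03 on the remaining 5. The part of these differences in the low signal of the 10 genes was not tested. Because each array is a bulk sample, fewer cells that express a gene and less RNA per cell cannot be told apart.

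**Figure D1:**
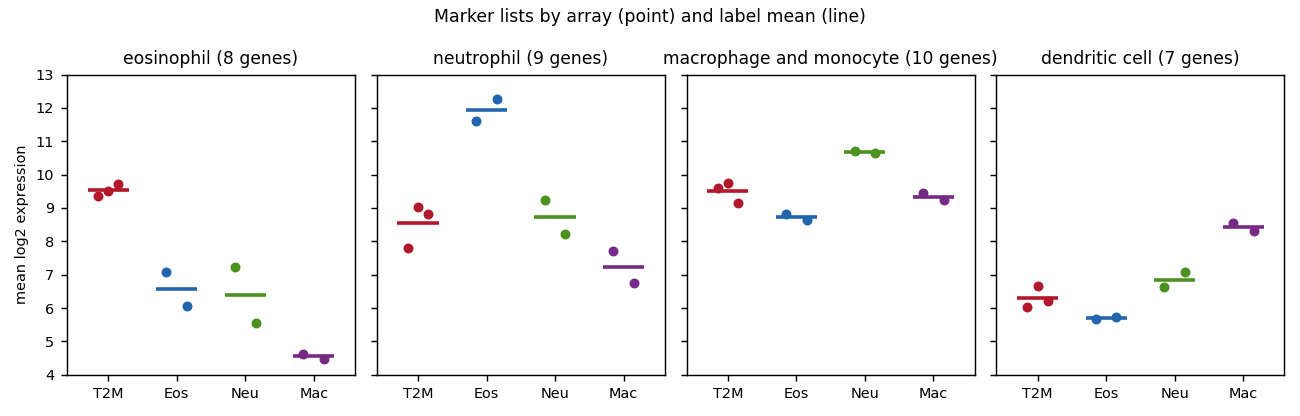
Mean log2 expression (vertical axis) of 4 marker lists on each array (points), with a line at the mean of each label; Eos, Neu and Mac are the arrays labelled eosinophils, neutrophils and macrophages. The eosinophil list is highest in T2M cells (9.35 to 9.73) and the neutrophil list is highest in cells labelled eosinophils (11.62 and 12.25).

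The 10 genes belong to no single pathway. Myeloid cells move by turning chemoattractant signals into activity of the small GTPase Rac, tune their activation through inhibitory receptors and through kinases that hold Src family enzymes in check, and digest engulfed material in lysosomes that motor proteins carry along microtubules. Havcr2, Matk and Prex1 act in the receptor and signalling steps, Plbd1 and Borcs6 belong to lysosomes, and Gch1 supplies the cofactor tetrahydrobiopterin, which nitric oxide synthases need. Niban1 and Zfp106 are linked to stress and to RNA, and Plac8 is a small protein abundant in myeloid cells.

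Promoter windows are shown for Havcr2 and Plbd1, the 2 members that differed between other populations, and for Zfp106, the only member with matches to 2 of the motifs searched within 1 window. Each sequence is the RefSeq window of assembly GRCm38.p6, from 250 bases before to 50 bases after the annotated start, in the direction of the gene, with motif matches in capitals. The Plbd1 window lies wholly inside the gene span given below, which reaches 136662303 on the minus strand. Sequence upstream of that outer end was not searched for Plbd1. The Krcc1 window, which is not shown, also lies wholly inside its gene span, at 71271769 to 71272068 on the plus strand. Sequence upstream of 71271677, the outer end of Krcc1, was not searched either.
Havcr2, chr11:46454681-46454980, plus strand: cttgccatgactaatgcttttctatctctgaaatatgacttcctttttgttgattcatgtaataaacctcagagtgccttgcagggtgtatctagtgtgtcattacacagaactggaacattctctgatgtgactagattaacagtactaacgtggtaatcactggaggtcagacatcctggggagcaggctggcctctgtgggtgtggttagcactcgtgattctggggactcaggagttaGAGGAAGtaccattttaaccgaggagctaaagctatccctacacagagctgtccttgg
Zfp106, chr2:120563810-120564109, minus strand: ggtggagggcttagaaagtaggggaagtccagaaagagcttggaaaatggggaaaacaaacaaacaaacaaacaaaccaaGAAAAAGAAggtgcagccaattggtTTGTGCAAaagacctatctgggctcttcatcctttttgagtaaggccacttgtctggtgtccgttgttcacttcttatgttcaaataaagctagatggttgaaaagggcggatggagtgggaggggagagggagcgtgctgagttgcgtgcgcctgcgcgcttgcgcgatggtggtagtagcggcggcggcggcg
Plbd1, chr6:136661844-136662143, minus strand: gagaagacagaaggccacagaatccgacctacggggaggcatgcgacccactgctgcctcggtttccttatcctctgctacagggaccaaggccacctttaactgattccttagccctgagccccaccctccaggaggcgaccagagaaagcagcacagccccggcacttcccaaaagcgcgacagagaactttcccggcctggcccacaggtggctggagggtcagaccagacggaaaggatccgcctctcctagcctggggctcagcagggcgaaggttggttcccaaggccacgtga
The capitals in Havcr2 are a match to the PU.1 core GAGGAAG at bases -8 to -2 from the start, and those in Zfp106 are an interferon response core (GAAANNGAA) at -170 to -162 and a C/EBP core (TTGCNNAA, here on the other strand) at -145 to -138. PU.1 and C/EBP factors are regulators of myeloid genes. All 10 members matched the RefSeq promoter table, Matk and Plac8 with 2 windows each. On both strands, the PU.1 core occurred in 3 of the 10 (Havcr2, Matk and Krcc1), against 15.36% of all genes. In Krcc1 it lies after the start, at bases 29 to 35. The C/EBP core occurred in 2 (Zfp106 and Plac8) against 12.2%, the interferon core in 1 (Zfp106) against 9.76%, and the NF-kappaB site GGGNNTTCC in 1 (Plac8) against 6.58%. The GAS site TTCNNNGAA, at which STAT factors bind, was found in 0 of the 10 against 9.55% of all genes. These are matches of letters within the windows only. GC content of the members' windows had a median of 60.5%, against 52.7% for all windows.

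Havcr2 (chromosome 11, 46454931 to 46481255) encodes TIM-3, an inhibitory receptor of T cells and myeloid cells that binds galectin-9 and phosphatidylserine. It measured 8.16, 8.35 and 7.99 on the T2M arrays, against 11.67 and 11.76 in eosinophils, 10.63 and 11.04 in neutrophils, and 10.87 and 10.45 in macrophages, all on the log2 scale. The T2M arrays lay together at the bottom, with a gap of 2.10 to the lowest other array, and the eosinophil arrays were the highest. The mean of 8.17 ± 0.18 (SD, n = 3) in T2M cells was 2.50 below the nearest label, macrophages, a 5.64-fold difference, and 11.7-fold below eosinophils.

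Matk (chromosome 10, 81252935 to 81262985) encodes a kinase of the C-terminal Src kinase family, which phosphorylates the inhibitory tyrosine of Src family kinases. Its brightest probe set read 5.70, 6.45 and 6.06 in T2M cells, against 7.64 and 9.01 in eosinophils, 7.83 and 8.66 in neutrophils, and 9.11 and 8.93 in macrophages. The eosinophil replicates were 1.37 apart, and the lower of them was the lowest of the other 6 arrays, yet it stood 1.20 above the highest T2M array. The T2M mean of 6.07 ± 0.38 (SD, n = 3) was 4.53-fold below neutrophils and 7.75-fold below macrophages.

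Prex1 (chromosome 2, 166566345 to 166713832) encodes an exchange factor that switches on Rac when PI3-kinase lipid and G protein βγ subunits reach it together, as in chemotaxing neutrophils. Signal was 6.56, 7.55 and 6.23 in T2M cells, against 8.54 and 9.95 in eosinophils, 9.26 and 9.39 in neutrophils, and 10.59 and 10.65 in macrophages. It had the widest spread among T2M replicates of the 10 genes (6.78 ± 0.69, SD, n = 3) and the narrowest gap, 0.99, between the highest T2M array and the lowest other array. Against macrophages, the highest label, it was 14.3-fold lower in T2M cells, the largest fold of the set, and against eosinophils, the nearest, 5.53-fold lower.

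Plbd1 (chromosome 6, 136612071 to 136662303) encodes a phospholipase B-like hydrolase of lysosomes and granules that removes fatty acids from phospholipids. It measured 8.51, 8.68 and 9.04 in T2M cells, against 10.27 and 10.71 in eosinophils, 11.45 and 11.77 in neutrophils, and 12.67 and 12.48 in macrophages. These values formed 4 steps with no overlap between any pair of labels, with T2M cells at the bottom and macrophages at the top. T2M cells (8.74 ± 0.27, SD, n = 3) were 3.37-fold below eosinophils, the smallest fold to a nearest label among the 10, and 14.3-fold below macrophages.

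Borcs6 (chromosome 11, 69059775 to 69061576) encodes a subunit of BORC, the complex that recruits the GTPase Arl8 to lysosomes and so couples them to kinesin motors. It read 4.91, 5.91 and 5.21 in T2M cells, against 7.10 and 8.52 in eosinophils, 7.33 and 7.91 in neutrophils, and 8.75 and 8.63 in macrophages. The macrophage arrays were the highest, and eosinophil replicate 1, the lowest of the other 6 arrays, stood 1.18 above the highest T2M array. The T2M mean of 5.34 ± 0.52 (SD, n = 3) was 4.84-fold below neutrophils and 10.2-fold below macrophages. That mean exceeded those of 33.5% of all genes in T2M cells, the lowest such share of the 10, and its detection above background was not tested.

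Gch1 (chromosome 14, 47153895 to 47189413) encodes GTP cyclohydrolase, the rate-limiting enzyme of tetrahydrobiopterin synthesis. Its brightest probe set gave 6.96, 6.69 and 6.36 in T2M cells, against 9.37 and 9.77 in eosinophils, 9.19 and 9.15 in neutrophils, and 8.91 and 8.63 in macrophages. Eosinophils were highest and macrophages nearest to T2M cells, the same order as for Havcr2. The T2M mean of 6.67 ± 0.30 (SD, n = 3) was 4.28-fold below macrophages and 7.45-fold below eosinophils.

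Niban1 (chromosome 1, 151571373 to 151721432) encodes a protein induced by cell stress that affects translation. Its brightest probe set gave 8.17, 7.89 and 7.79 in T2M cells, against 10.49 and 10.31 in eosinophils, 10.32 and 10.29 in neutrophils, and 10.86 and 10.83 in macrophages. The gap of 2.11 between the groups of arrays was the widest of the 10. All 6 other arrays lay within 10.29 and 10.86, and the T2M mean of 7.95 ± 0.20 (SD, n = 3) was 5.10-fold below neutrophils and 7.42-fold below macrophages.

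Zfp106 (chromosome 2, 120506820 to 120563864) encodes a zinc finger protein that binds RNA and is needed for motor neurons in mice. Its brightest probe set measured 7.96, 7.40 and 8.10 in T2M cells, against 10.18 and 9.97 in eosinophils, 10.42 and 9.97 in neutrophils, and 10.35 and 10.38 in macrophages. The other 3 labels were nearly level, with means 0.29 apart at most. T2M cells (7.82 ± 0.37, SD, n = 3) were 4.77-fold below the nearest label, eosinophils, and 5.84-fold below macrophages.

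Plac8 (chromosome 5, 100551589 to 100572253), also called onzin, encodes a cysteine-rich protein that mouse neutrophils need to kill engulfed bacteria efficiently. It measured 10.55, 9.41 and 9.36 in T2M cells, against 11.71 and 12.01 in eosinophils, 11.97 and 12.03 in neutrophils, and 12.25 and 12.51 in macrophages. T2M replicate 1 stood above the other T2M arrays but below all arrays of the other labels. The T2M mean of 9.77 ± 0.67 (SD, n = 3) was 4.25-fold below eosinophils and 6.08-fold below macrophages.

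Krcc1 (chromosome 6, 71271677 to 71286825) encodes a lysine-rich coiled-coil protein. Signal was 7.95, 6.93 and 7.61 in T2M cells, against 9.87 and 9.53 in eosinophils, 10.33 and 9.06 in neutrophils, and 9.28 and 9.61 in macrophages. The neutrophil replicates held both the highest and the lowest of the 6 other arrays. The T2M mean of 7.49 ± 0.52 (SD, n = 3) was 3.87-fold below macrophages and 4.61-fold below eosinophils, which makes Krcc1 the member with the smallest fold to its highest label.

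**Figure D2:**
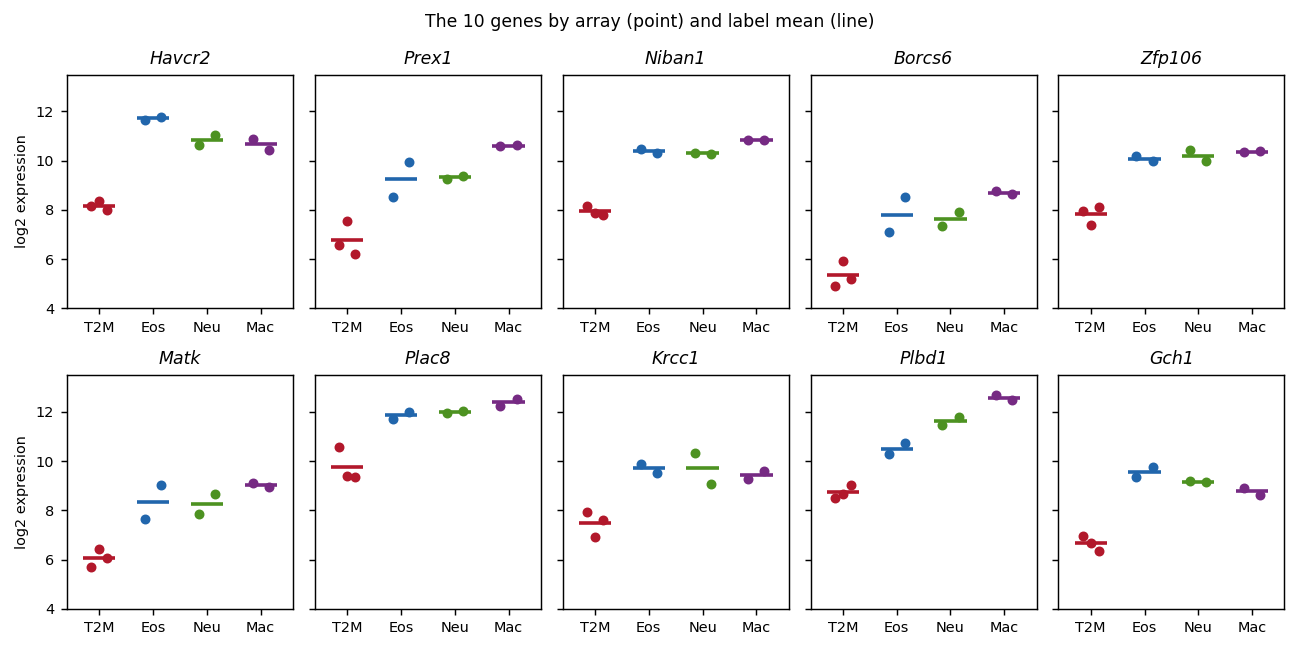
Log2 expression (vertical axis) of the brightest probe set of each of the 10 genes on every array (points), with a line at the mean of each label. In each panel the 3 T2M arrays lie below all 6 arrays labelled eosinophils (Eos), neutrophils (Neu) and macrophages (Mac), by 0.99 (Prex1) to 2.11 (Niban1).

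For all 10 genes the brightest probe set separated the T2M arrays from the rest, as the way they were chosen requires, and 2.51% of all genes showed such a separation. Called lower by limma against each of the other labels were 40 genes, or 0.22% of all. By the smallest of its 3 differences, Havcr2 (2.50) was the second of those 40 and Plbd1 (1.75) the 14th. Ifitm6 (2.66), Mefv (2.14), Ifitm2 (2.12) and Ifngr1 (1.80) lie in the same range and are not among the 10, and just outside it came Otulinl (1.74), Exoc8 (1.71) and Emb (1.71). The highest label was macrophages for 7 of the 10 genes and eosinophils for Havcr2, Krcc1 and Gch1. The label nearest to T2M cells was eosinophils for 4 genes, neutrophils for 3 and macrophages for 3. The members' median difference was -2.36 against eosinophils, -2.36 against neutrophils and -2.75 against macrophages, beside medians of 0.06, -0.03 and 0.18 over all genes. These comparisons share the T2M arrays, and their direction follows from the choice of genes.

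Further probe sets exist for 4 of the 10 genes, and 1 of these 7 other probe sets separated T2M cells from the rest. That one reports on Niban1, and it read 7.90, 6.33 and 6.47 in T2M cells, against 9.26 and 8.98 in eosinophils, 8.51 and 8.83 in neutrophils, and 9.60 and 9.56 in macrophages. Among these 4 genes, only the probe sets of Niban1 all place T2M cells lowest on every array. The second Matk probe set read 5.69, 6.17 and 5.62 in T2M cells, against 6.50 and 8.58 in eosinophils, 5.89 and 7.19 in neutrophils, and 7.02 and 6.80 in macrophages. T2M cells had its lowest mean, 0.72 below neutrophils, but 1 neutrophil array fell among the T2M arrays.

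The other Gch1 probe set measured 5.63, 4.01 and 4.37 in T2M cells, against 7.08 and 5.80 in eosinophils, 4.41 and 5.03 in neutrophils, and 4.91 and 4.42 in macrophages. On it T2M cells, neutrophils and macrophages overlapped, and only the eosinophil arrays lay above all others. Zfp106 showed the widest disagreement, since none of its 4 other probe sets set T2M cells apart. A further Zfp106 probe set measured 9.18, 8.00 and 8.22 in T2M cells, against 9.84 and 8.84 in eosinophils, 7.29 and 9.08 in neutrophils, and 8.71 and 8.73 in macrophages. On 3 of the 4, another label had a lower mean than T2M cells, with the lowest other label minus T2M at -1.21, -0.32 and, on the probe set just given, -0.28. The low Zfp106 signal in T2M cells thus rests on 1 of 5 probe sets, and which transcripts each of them detects was not tested.

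**Figure D3:**
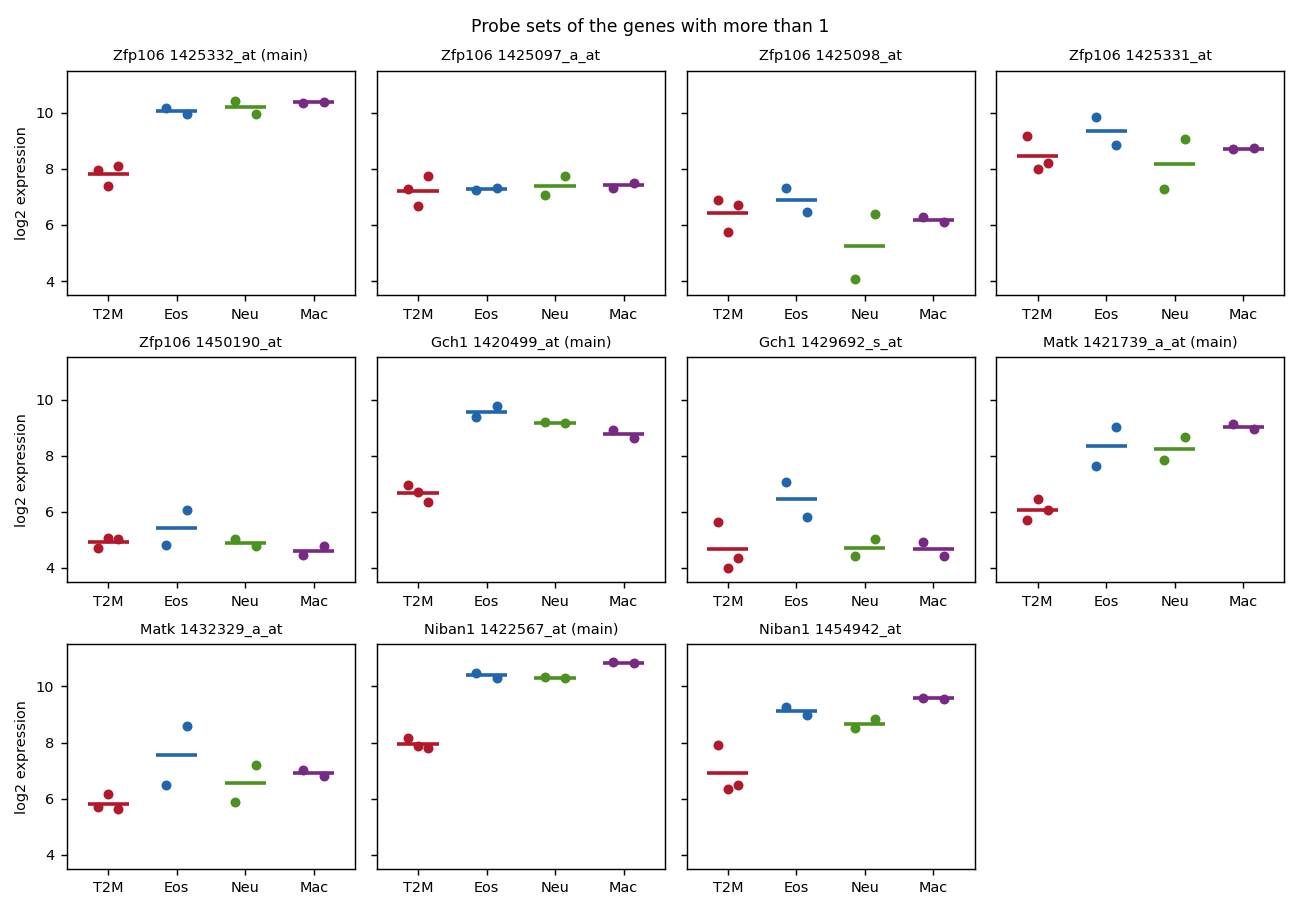
Log2 expression (vertical axis) on every array (points) for each probe set of the 4 genes with more than 1, with a line at the mean of each label; the brightest probe set of a gene is marked main. Both Niban1 probe sets place the T2M arrays lowest, while the 4 other Zfp106 probe sets and the other Gch1 and Matk probe sets show overlap between T2M cells and other labels.

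How the genes differ among the other labels was not used directly to choose them and was tested with limma over all 18193 genes (Benjamini-Hochberg adjusted p under 0.05). Each such difference is, however, the difference of 2 comparisons with T2M cells that the choice did use. The counts called among the 10 are therefore not independent of the choice. Setting them beside the shares of all genes is a description only. Eosinophils and macrophages differed for 2 of the 10 genes, where 17.4% of all genes were called. Plbd1 averaged 10.49 ± 0.31 in eosinophils and 12.57 ± 0.14 in macrophages (SD, n = 2 each), a difference of -2.08 with a standard error (SE) of 0.28 and an adjusted p of 0.00238. It kept its call in all 9 fits that left out 1 array, with differences of -2.30 to -1.86. Havcr2 went the other way, at 11.72 ± 0.07 in eosinophils and 10.66 ± 0.30 in macrophages (SD, n = 2 each), a difference of 1.05 (SE 0.27, adjusted p = 0.0305). Its call was lost without eosinophil replicate 1 or 2 or macrophage replicate 1 or 2 (adjusted p = 0.093, 0.121, 0.0946 and 0.217), at differences of 0.84 to 1.26, and with the macrophage arrays averaged as 1 replicate (adjusted p = 0.145) or the replicate number as a block (adjusted p = 0.071).

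The other 8 genes were not called between eosinophils and macrophages. Gch1 averaged 9.57 in eosinophils and 8.77 in macrophages, with a difference of 0.80 (95% interval 0.15 to 1.44, adjusted p = 0.0894). For Prex1 the difference was -1.37 (95% interval -2.58 to -0.16, adjusted p = 0.113), with means of 9.25 in eosinophils and 10.62 in macrophages. Intervals of the remaining 6 genes included 0. The median difference of the 10 genes was -0.48, against 0.18 for all genes.

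Between eosinophils and neutrophils, 0 of the 10 genes were called by limma, where 7.88% of all genes were, and 2 of the 10 had an unadjusted p under 0.05. Here and below, the share of all genes at an unadjusted p under 0.05 is not given. Such counts therefore do not show whether the named genes differ more often than other genes. Plbd1 averaged 10.49 in eosinophils and 11.61 in neutrophils, a difference of -1.12 (95% interval -1.77 to -0.47, adjusted p = 0.0505), and it passed without T2M replicate 1 (adjusted p = 0.0467) and after quantile normalization (adjusted p = 0.0421). Havcr2 averaged 11.72 in eosinophils and 10.84 in neutrophils, a difference of 0.88 (95% interval 0.27 to 1.49, adjusted p = 0.0876). Krcc1 had the smallest difference, 0.00 (95% interval -1.07 to 1.07), so a 2-fold difference either way lies within its interval.

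Between neutrophils and macrophages, limma called 0 of the 10 genes, where 2.26% of all genes were called, and 3 had an unadjusted p under 0.05. Prex1 averaged 9.33 in neutrophils and 10.62 in macrophages (difference -1.29, 95% interval -2.50 to -0.08, adjusted p = 0.253). Plbd1 averaged 11.61 in neutrophils and 12.57 in macrophages (difference -0.97, 95% interval -1.62 to -0.32, adjusted p = 0.143). Neutrophil replicate 2 enters this comparison, and without it none of the 10 was called either, while the count over all genes was 3009 in place of 412.

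**Figure D4:**
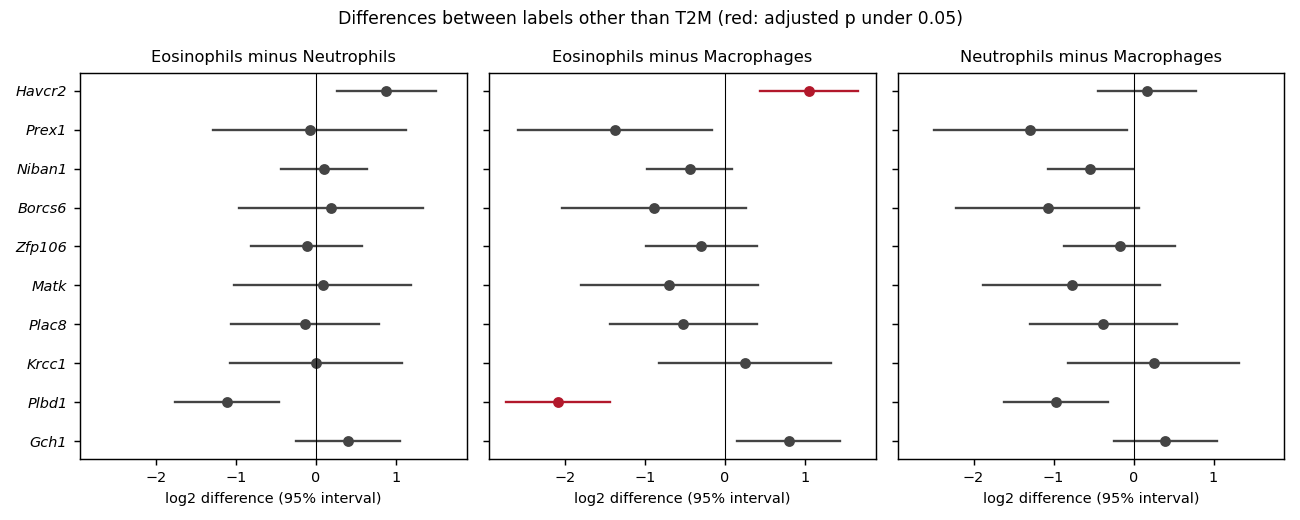
Log2 differences (horizontal axis, first label minus second) of the 10 genes in the 3 comparisons without T2M cells, as points with 95% intervals from limma; red marks an adjusted p under 0.05. Only Havcr2 (1.05) and Plbd1 (-2.08), both between eosinophils and macrophages, are red.

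Over the 6 arrays that are not T2M, the 10 genes did not share 1 order. Borcs6 and Matk varied together (Pearson r = 0.977), as did Prex1 and Borcs6 (0.952) and Prex1 and Plac8 (0.922), each low on eosinophil replicate 1 and high on the macrophage arrays. Havcr2 and Gch1 formed another pair (0.868), highest in eosinophils, and both ran opposite to Plbd1 (-0.820 for Havcr2 and -0.838 for Gch1). Each of these arrays shares its label with another, so the values describe 6 points only. Eosinophil replicate 1 was the lowest of the 6 arrays for 5 of the 10 genes and had the raised 3′ minus 5′ difference of the actin control given above. The part of RNA length in that array's low values was not tested.

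Over all 9 arrays, the genes closest to the mean profile of the 10 were Dtd1 (r = 0.993), Ifngr1 (0.989), Mkrn1 (0.965), Atxn7l3b (0.963) and Ifitm6 (0.961). Ifngr1, a subunit of the interferon gamma receptor, read 8.85, 8.61 and 8.74 in T2M cells, against 10.58 and 11.12 in eosinophils, 10.66 and 10.40 in neutrophils, and 11.03 and 11.18 in macrophages. Dtd1 followed the same pattern within a much narrower range, at 7.14 to 7.26 in T2M cells and 7.84 to 7.99 on the other 6 arrays. The single closest gene was Gngt2 for Plbd1 (0.991), Gigyf2 for both Borcs6 (0.991) and Prex1 (0.984), Dtd1 for Niban1 (0.984), Mkrn1 for Matk (0.984) and Atf2 for Zfp106 (0.981). For the others it was Trim16 for Krcc1 (0.978), Slc25a30 for Plac8 (0.976), Fkbp5 for Gch1 (0.975) and Emb for Havcr2 (0.958). Being low on the T2M arrays is enough to raise these values, and they are given as descriptions of 9 arrays.

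Genes that work with 7 of the members were then examined, as 83 measured genes in 7 lists, none of them a member. In T2M cells limma called 1 of the 83 higher and 6 lower against eosinophils, where 4.46% of all genes were called, 1.57% higher and 2.89% lower. Against neutrophils it called 0 higher and 2 lower (2.82% of all genes, 1.25% higher and 1.57% lower), with 18 of the 83 at an unadjusted p under 0.05. Against macrophages it called 8 higher and 14 lower (17.2% of all genes, 6.53% higher and 10.6% lower). That last count rests on both macrophage arrays, since leaving out either, or averaging them as 1 replicate, left 1 call, Vav2. It was 12 without T2M replicate 2 and 11 without T2M replicate 3. The count of 7 against eosinophils was 4 without T2M replicate 2, 2 without eosinophil replicate 2 and 11 without either neutrophil array. The count of 2 against neutrophils was 5 without T2M replicate 1, 6 without neutrophil replicate 1 and 4 without neutrophil replicate 2, and it was 1 without T2M replicate 2 or either macrophage array. The median difference of the 83 genes was -0.07 against eosinophils, -0.17 against neutrophils and -0.48 against macrophages. Calls among the 83 were not particular to T2M cells. Limma also called 7 between eosinophils and neutrophils (7.88% of all genes) and 16 between eosinophils and macrophages (17.4%). Between neutrophils and macrophages it called 2 (2.26%).

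Around Prex1, the list of Rac activators and their PI3-kinase and G protein partners (21 genes) had 1 gene higher and 2 lower in T2M cells than in eosinophils, 1 lower than in neutrophils and 5 lower than in macrophages. Vav2, a Rac exchange factor of the Vav family, measured 6.11, 5.89 and 5.72 in T2M cells, against 4.86 and 4.11 in eosinophils, 8.88 and 8.74 in neutrophils, and 9.26 and 9.41 in macrophages. T2M cells thus lay between eosinophils and the other labels with no overlap, above eosinophils by 1.43 (SE 0.27, adjusted p = 0.0258), and below neutrophils by a difference of -2.90 (SE 0.27, adjusted p = 0.00433) and below macrophages by -3.43 (SE 0.27, adjusted p = 0.000337). Both lower calls held in all 9 fits without 1 array, and that against neutrophils was lost when only the arrays of those 2 labels were fitted, where 0 of all genes were called. The higher call against eosinophils held in 3 of 9. It was lost without any 1 T2M array, eosinophil replicate 2 or either macrophage array, with the replicate number as a block, and when only the arrays of those 2 labels were fitted.

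Vav1, the blood cell member of the same family, measured 6.60, 6.97 and 7.12 in T2M cells, against 9.17 and 9.37 in eosinophils, 7.39 and 8.59 in neutrophils, and 8.53 and 8.49 in macrophages. Like Prex1, it was lowest on all T2M arrays, with differences of -2.37 against eosinophils (SE 0.35, adjusted p = 0.0105) and -1.61 against macrophages (SE 0.35, adjusted p = 0.0193). The call against eosinophils was lost without eosinophil replicate 2, and that against macrophages without either macrophage array or with those arrays averaged. Against neutrophils limma did not call Vav1. Rac2, the blood cell Rac itself, averaged 9.78 in T2M cells and 11.36 in eosinophils and was not called (difference -1.58, adjusted p = 0.442).

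Around Matk, the list of its relative Csk, Src family kinases and their anchors (8 genes) had 1 gene lower than in eosinophils and 2 higher and 1 lower than in macrophages. Against neutrophils limma called 0, with 2 of 8 at an unadjusted p under 0.05. Pag1, the membrane anchor that recruits Csk, measured 7.57, 6.22 and 6.04 in T2M cells, against 10.66 and 9.71 in eosinophils, 8.59 and 7.70 in neutrophils, and 6.67 and 6.76 in macrophages. It fell by 3.57 relative to eosinophils (SE 0.51, adjusted p = 0.00932), lost the call without eosinophil replicate 1, and overlapped the macrophage arrays. Csk, the other kinase of Matk's family, measured 6.92, 8.02 and 7.88 in T2M cells and 10.49 and 10.32 in macrophages, a difference of -2.80 (SE 0.44, adjusted p = 0.00565). In eosinophils Csk read 7.69 and 8.90, overlapping the T2M arrays, and in neutrophils 8.84 and 9.34. Src, a substrate of Csk and Matk, ran the other way against macrophages, at 6.50, 6.98 and 6.78 in T2M cells and 4.65 and 4.52 in macrophages (difference 2.17, SE 0.35, adjusted p = 0.00633). Src read 7.49 and 6.40 in eosinophils and 6.44 and 7.01 in neutrophils, on both sides of the T2M readings, so the macrophage arrays stood apart. The calls of Csk and Src were lost without either macrophage array.

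Around Niban1, the list of its family and of the integrated stress response (12 genes) had 2 genes lower than in eosinophils, 1 lower than in neutrophils, and 3 higher and 2 lower than in macrophages. Chac1, a glutathione-degrading enzyme induced by ATF4, measured 5.44, 5.35 and 5.69 in T2M cells, against 7.85 and 8.30 in eosinophils, 4.80 and 5.49 in neutrophils, and 3.94 and 4.05 in macrophages. It was lower than in eosinophils by a difference of -2.58 (SE 0.28, adjusted p = 0.00303), a call kept in all 9 fits without 1 array. It was higher than in macrophages by 1.50 (SE 0.28, adjusted p = 0.0107), a call lost without either macrophage array. Its macrophage readings lay below the median signals of those arrays (5.48 and 5.53). Its T2M readings lay near the medians of theirs (5.60, 5.68 and 5.65), so this difference is between low signals. Niban2, the closest relative of Niban1 on the list, measured 9.27, 9.37 and 9.95 in T2M cells and 10.89 and 11.35 in neutrophils, a difference of -1.59 (SE 0.28, adjusted p = 0.0292). Macrophage readings of Niban2, 9.625 and 9.329, lay among those of T2M cells. In eosinophils it read 8.26 and 8.53, below all T2M arrays, unlike Niban1, and the call against neutrophils was lost without T2M replicate 1 or 2, neutrophil replicate 2 or either macrophage array, and with the replicate number as a block.

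**Figure D5:**
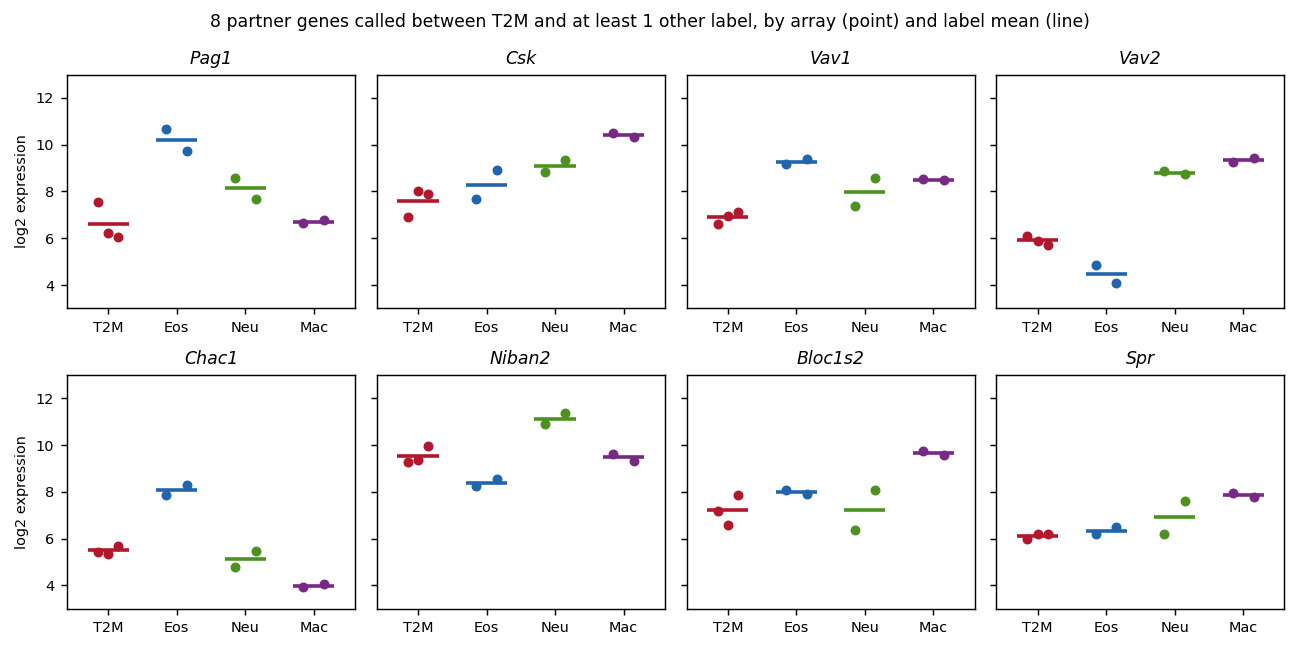
Log2 expression (vertical axis) of 8 partner genes called between T2M cells and at least 1 other label, on every array (points) with a line at the mean of each label; Eos, Neu and Mac are the arrays labelled eosinophils, neutrophils and macrophages. Vav1 is lowest on the 3 T2M arrays, Vav2 and Niban2 are lowest in eosinophils, and Pag1 overlaps between T2M cells and macrophages.

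Around Gch1, the list of tetrahydrobiopterin enzymes and users (13 genes) had 3 genes higher and 1 lower than in macrophages. Limma called 0 against eosinophils and 0 against neutrophils, with 2 and 1 of 13 at an unadjusted p under 0.05. Spr, the sepiapterin reductase that completes the synthesis Gch1 begins, measured 5.99, 6.19 and 6.19 in T2M cells, against 6.18 and 6.48 in eosinophils, 6.20 and 7.61 in neutrophils, and 7.96 and 7.80 in macrophages. Its difference from macrophages was -1.76 (SE 0.38, adjusted p = 0.0186), lost without either macrophage array, and it overlapped the eosinophil arrays, unlike Gch1. Pcbd1 and Tph1 were among the genes called the other way by limma. Their differences from macrophages were 1.14 (SE 0.23, adjusted p = 0.0147) and 1.07 (SE 0.28, adjusted p = 0.0366). Pcbd1 read 5.33, 5.73 and 5.63 in T2M cells, 4.48 and 4.38 in macrophages, and a similar 5.41 to 5.81 in eosinophils and neutrophils. Tph1 read 4.32, 4.99 and 4.90 in T2M cells, 4.23 and 4.39 in eosinophils, 4.29 and 3.78 in neutrophils, and 3.56 and 3.78 in macrophages. The macrophage readings of both genes and all Tph1 readings in T2M cells lay below the medians of their arrays, so these are low signals. Both calls were lost without either macrophage array, after quantile normalization and with the replicate number as a block.

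Around Borcs6, the list of other BORC subunits and lysosome transport partners (10 genes) had 2 genes lower than in macrophages. Limma called 0 against eosinophils, with 0 of 10 at an unadjusted p under 0.05, and 0 against neutrophils, with 1 of 10. Bloc1s2, a subunit shared with the BLOC-1 complex, measured 7.19, 6.57 and 7.85 in T2M cells, against 8.10 and 7.90 in eosinophils, 6.38 and 8.09 in neutrophils, and 9.74 and 9.56 in macrophages. Its difference from macrophages was -2.45 (SE 0.52, adjusted p = 0.0172). Borcs7, a subunit of the same complex as Borcs6, measured 6.74, 6.61 and 6.05 in T2M cells, against 6.60 and 5.47 in eosinophils, 7.82 and 8.13 in neutrophils, and 8.09 and 7.77 in macrophages. It overlapped between T2M cells and eosinophils, unlike Borcs6, and its difference from macrophages was -1.46 (SE 0.37, adjusted p = 0.0313). Both calls were lost without either macrophage array, and the Borcs7 call also without T2M replicate 2 or 3, after quantile normalization and with the replicate number as a block.

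Around Plbd1, the list of its relative Plbd2 and lysosomal lipid enzymes (11 genes) had 1 gene lower than in eosinophils and 3 lower than in macrophages. Against neutrophils limma called 0, with 3 of 11 at an unadjusted p under 0.05. Plbd2 averaged 6.27 in T2M cells and 8.31 in macrophages (difference -2.04, SE 0.58, adjusted p = 0.0461), and the call was lost without T2M replicate 2 or 3 or any 1 eosinophil or macrophage array, after quantile normalization and with the replicate number as a block. Ppt1, a lysosomal thioesterase, was the gene lower than in eosinophils (difference -1.92, adjusted p = 0.00699), but its probe set of highest variance gave -0.03 there and 2.08 against macrophages, where the brightest gave -1.32 (adjusted p = 0.0119, lost without either macrophage array and with the replicate number as a block).

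Around Havcr2, the list of TIM family members, TIM-3 ligands and adaptors (8 genes) had 0 calls by limma in any of the 3 comparisons, with 3, 0 and 2 genes at an unadjusted p under 0.05 against eosinophils, neutrophils and macrophages. Lgals9, which encodes the TIM-3 ligand galectin-9, measured 6.94, 7.57 and 7.68 in T2M cells, against 8.77 and 9.52 in eosinophils, 7.22 and 9.53 in neutrophils, and 8.01 and 8.25 in macrophages. Its difference from eosinophils was -1.75 (95% interval -3.14 to -0.36, adjusted p = 0.173), and 1 neutrophil array lay among the T2M arrays.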

How the data were processed

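The authors deposited a table of log2 signal with a row for each probe set and a column for each array, and it was used unchanged. The submitters' processing notes name RMA, affy and limma. Versions and settings are not given in the sources used here, and a log2 difference of 1 was read as 2-fold. Of 45101 probe sets, 64 controls were left out, 34945 had 1 gene symbol in the platform annotation, 932 several and 9160 none, and 34741 matched the RefSeq gene table (GRCm38.p6), which also gave positions. Each of the 18193 genes was represented by its brightest probe set, the one of highest mean over the 9 arrays, and 9010 genes had several. All probe sets of the 10 members were also described.

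R 4.3.3 and limma 3.58.1 served to compare labels (linear model of 4 label means over all 9 arrays, 5 residual degrees of freedom, moderated two-sided tests), with Benjamini-Hochberg adjustment over all genes of a contrast and a threshold of 0.05. The script was tested on simulated data first. Precision is limited by the number of arrays (median SE 0.308 for T2M comparisons and 0.337 for the others). Replicates are pools of mice by the labels, and p-values measure the spread between pools only if the arrays of a label come from separate pools. That was not tested, and the macrophage arrays correlated at 0.994. The labels do not say that replicate numbers pair the arrays. Replicate deviations correlated at 0.508 between T2M cells and eosinophils and at -0.176 to 0.032 between the other pairs of labels. The main fit had no block, although the value for T2M cells and eosinophils leaves a shared replicate effect possible there. A replicate block was an alternative.

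The members, the partner lists and the marker lists were chosen with earlier results of these data known. Genes were named by a rule. It took all members, and per partner list and T2M comparison up to 3 called genes and 1 not called, by size of difference. It also took the 5 genes closest to the members' mean profile, the closest gene to each member, and the 3 genes just outside the members' ranking. Ifitm6, Mefv, Ifitm2 and Ifngr1 fell inside that ranking and are named for that reason. Not all named partners are described. Alternatives were the probe set of highest variance, all named probe sets, only genes above the median level, a common array median, quantile normalization, trended robust eBayes, array weights, only the arrays of the 2 labels, a replicate block, averaged macrophage arrays, a 2-fold minimum and each array left out. Listed genes that matched no single-symbol probe set, 13 among the partners, were not analysed here. Figures used Python 3.11.15 and matplotlib 3.10.9.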

Additional observations from a re-analysis of the deposited data

How the results depend on the processing

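The lowest other label minus T2M reversed on other Zfp106 probe sets (-1.21, -0.28 and -0.32), and Ppt1 against macrophages reversed to 2.08 with the probe set of highest variance. The causes were not tested. Of the 10 genes, those called between eosinophils and macrophages numbered 2, but 1 with trended robust eBayes, 4 with array weights, 1 with the replicate block, 1 with macrophage arrays averaged, 0 with a 2-fold minimum, and 1 to 2 without 1 array. With the 2-fold minimum, adjusted p was 0.0597 for Plbd1 and 1 for Havcr2. Between eosinophils and neutrophils the count was 0, but 1 after quantile normalization and 0 to 1 without 1 array; between neutrophils and macrophages it was 0 throughout. Partner genes called against eosinophils numbered 7, but 12 with array weights, 4 with only those 2 labels, 1 with a 2-fold minimum and 2 to 11 without 1 array. Against neutrophils they numbered 2, but 7 with the probe set of highest variance, 6 with all probe sets, 0 with only those 2 labels, 1 each with trended robust eBayes, array weights, the replicate block, macrophage arrays averaged and a 2-fold minimum, and 1 to 6 without 1 array. Against macrophages they numbered 22, but 11 after quantile normalization, 52 with array weights, 9 with the replicate block, 1 with macrophage arrays averaged, 1 with a 2-fold minimum and 1 to 26 without 1 array.

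Counts over all genes moved with the settings too: 812 against eosinophils (81 to 1426), 513 against neutrophils (0 to 694) and 3123 against macrophages (415 to 10163) for T2M cells, 1433 for eosinophils against neutrophils (168 to 1816), 3163 for eosinophils against macrophages (660 to 6400) and 412 for neutrophils against macrophages (84 to 510). Without 1 array these ran 192 to 1211, 108 to 897, 434 to 5070, 710 to 1821, 862 to 4320 and 75 to 3009. Of genes called between T2M cells and neutrophils, 55.6% were lower in T2M cells, against 39.5% after quantile normalization. A common array median moved the median difference of all genes by 0.121 in both comparisons of eosinophils with neutrophils and macrophages. Since replicate deviations correlated below -0.1 between neutrophils and each of the eosinophil and macrophage labels, a block with the neutrophil numbers exchanged was added after seeing the data, and it called 0 of the 10 genes in both comparisons. With 2 or 3 pools per label, no array could be tested as an outlier within its label.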
